A study of Homo sapiens with 10 samples.

Results

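The change that AIMP1 protein treatment left in mRNA levels was compared between 2 human multiple myeloma cell lines, one labelled OCI and the other H929, to find genes that moved in opposite directions. Multiple myeloma is a cancer of plasma cells, the antibody-secreting end stage of the B cell lineage. The comparison covers the 8945 of 58229 genes that were above 0 in all 10 libraries and had a mean of at least 5 FPKM (fragments per kilobase of transcript, scaled to the depth of the library). The genes nearest to that limit were TRANK1, with a mean of 5.002 FPKM and inside it, and CD27-AS1, with a mean of 4.999 FPKM and outside it. For each gene the response of a line is the log2(FPKM + 1) value of its protein-treated library minus the mean of the same line's other 4 libraries, and the difference between lines is the OCI response minus the H929 response.

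Each line gave 5 poly(A) RNA libraries: 1 from cells treated with AIMP1 protein, 2 from cells with AIMP1 knockdown, 1 from cells overexpressing AIMP1 and 1 from wild-type cells. The labels give no dose or duration of the protein, no knockdown or overexpression construct, no further name for the OCI line, and nothing on whether libraries came from separate cultures. The protein-treated cells carried no genetic change in AIMP1 per the labels. Because each line had 1 protein library, p-values rest on the assumption that it varies like the other 4 of its line, and they measure only the spread between these libraries, which may be technical and which also holds the effects of knockdown and overexpression.

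AIMP1 helps to hold together a complex of the enzymes that load amino acids onto tRNAs, and it is also secreted and acts as a cytokine on other cells. Cytosolic heat shock proteins are chaperones that fold new and damaged proteins. Their genes are switched on by the transcription factor HSF1 when unfolded proteins accumulate, and plasma cells, which make large amounts of antibody, depend heavily on such protein quality control. Cholesterol synthesis genes are switched on by the transcription factor SREBP2 when sterols in the endoplasmic reticulum run low, and immediate early genes such as EGR1 and FOS are transcribed within minutes of a signal at the cell surface.

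The libraries were not equally deep. Depth was estimated from the most common ratio of OCI wild-type to library FPKM among genes of very low mean, above 0 in both. Set to 100% in OCI wild type, it was 67.8% in OCI protein against 27.5% to 100% in the other 4 OCI libraries. In H929 protein it was 27.5%, against 33.9% to 41.8% in the other 4 H929 libraries. The FPKM values of all genes summed to 10598232 in H929 protein, against 3437320 to 4142481 in the other 4 H929 libraries. In OCI protein they summed to 3837398, against 4441058 to 7890139 in the other 4. The part of these sums in the responses was not tested. Plasma cell markers summed to 4270 FPKM in OCI protein against 3750 to 4540 FPKM in the other OCI libraries, and to 3680 FPKM in H929 protein against 3050 to 4350 FPKM in the other H929 libraries. Of the 10 myeloid markers, only MPO was at 0 in OCI protein, where they summed to 17.6 FPKM against 2.93 to 9.88 FPKM in the other OCI libraries. In H929 protein they summed to 3.39 FPKM, against 1.19 to 5.25 FPKM in the other H929 libraries, with 7 of 10 at 0. The 11 T and NK cell markers summed to 12.3 FPKM in OCI protein, of which TRAC made up 8.73 FPKM, against 1.82 to 5.79 FPKM in the other OCI libraries. They summed to 1.77 FPKM in H929 protein, with 8 of 11 at 0, against 1.40 to 19.9 FPKM in the other H929 libraries. The 10 stromal and endothelial markers summed to 4.75 FPKM in OCI protein, with 0 of 10 at 0, against 0.187 to 4.16 FPKM in the other OCI libraries, where 8 of 10 were at 0 in all but knockdown 1. They summed to 1.87 FPKM in H929 protein, with 7 of 10 at 0, against 0.159 to 1.66 FPKM in the other H929 libraries. The 10 erythroid markers summed to 20.3 FPKM in OCI protein against 9.27 to 135 FPKM in the other OCI libraries, and to at most 0.162 FPKM in any H929 library. The part of such cells in the differences was not tested, and 0 of these markers were among the tested genes. The 5 adipocyte markers, checked because the extract protocol speaks of adipose material, summed to at most 0.474 FPKM in any library. In bulk RNA, fewer cells of a type and less RNA per cell cannot be told apart. Across the tested genes the library most like OCI protein was OCI knockdown 2 (Pearson r = 0.936 across genes of 1 line, which are not independent), and the one most like H929 protein was H929 overexpression (r = 0.939).

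AIMP1 mRNA itself had nearly equal responses in the lines, with a wide error that holds the effects of knockdown and overexpression. It stood at 14.4 FPKM in OCI protein, against 14.3 FPKM in wild type, 5.03 and 2.35 FPKM in knockdown 1 and 2 and 59.7 FPKM in overexpression. In H929 it stood at 20.3 FPKM in the protein library, against 14.5 FPKM in wild type, 14.2 and 3.55 FPKM in the libraries labelled knockdown 1 and 2 and 62.5 FPKM in overexpression. Both protein libraries lay within the range of their line, and the OCI and H929 responses were 0.40 ± 1.41 and 0.40 ± 1.41 (SE; difference -0.0030, limma adjusted p = 0.999). AIMP1 in the library labelled H929 knockdown 1 was at the wild-type level.

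Opposite change occurred in both orders. The OCI protein library lay below all 4 others of its line while the H929 protein library lay above all 4 of its own for 835 genes (9.33% of those tested), and the reverse held for 453 genes (5.06%). With each library centred on its median these counts were 680 and 674, and with quantile normalization 599 and 599, so the excess of one order over the other depended on the scaling. The median response over all genes tested was 0.08 in OCI and 0.18 in H929, and centring moved these to -0.03 and -0.02. More genes lay outside on the same side, with 1470 above the other 4 in both lines (16.4%) and 525 below them in both (5.87%). Taken singly, the OCI protein library lay below all 4 others for 24.5% of the genes tested and above them for 34.5%. The H929 protein library lay above all 4 others for 42.9% and below them for 20.6%. Whether the shares of opposite change differ from what these rates would give together was not tested. The median responses of the 835 genes were -0.60 in OCI and 0.60 in H929, and those of the 453 genes were 0.65 in OCI and -0.49 in H929. The classes were chosen by these values, so the medians are a description. Both responses reached at least 1 in size for 33 of the 835 genes and 17 of the 453.

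limma, fitted to 4 group means over all 10 libraries, called 38 genes for the difference between lines at a Benjamini-Hochberg adjusted p under 0.05 (0.425% of those tested), and 18% of those tested had an unadjusted p under 0.05. The difference was positive for 11 genes (0.123%) and negative for 27 (0.302%), and the median over all genes tested was -0.09. Of the 38 genes, 35 had responses of opposite sign, and for 34 the protein libraries lay outside the range of the other 4 on opposite sides. The 3 with the same sign, FBXL16, PLXNA3 and PC, lay above the other 4 in both lines. Among all 8945 genes tested, 2301 had a negative response in OCI and a positive one in H929, and 1595 the reverse. The 38 were selected by the difference, so their counts are a description. Within lines, 240 genes rose and 116 fell in OCI (2.68% and 1.3%, or 3.98% in all), whereas 52 rose and 1 fell in H929 (0.581% and 0.0112%, or 0.593% in all). With median centring the split was 14 positive and 20 negative for the difference, 144 and 150 in OCI and 13 and 1 in H929. In the fit without centring, only HSPA1B and DST were called in both lines with opposite signs (0.0224%), both lower in OCI and higher in H929, and limma called 0 genes the other way round, where 40 genes had an unadjusted p under 0.05 in both lines, against 95 lower in OCI and higher in H929. The calls depended on the libraries used: 4 of the 38 genes remained called without H929 knockdown 1, without H929 knockdown 2 or without OCI overexpression, 8 without H929 wild type and 9 without OCI knockdown 1, out of 4, 4, 4, 9 and 9 called in those fits. All 38 were among 254 genes called without OCI knockdown 2 and among 159 called without H929 overexpression. HSPA1B and DNAJB1 were called in each of the fits that left out 1 library. So were HSPA6 and H2AC7, but these had means of 1.10 and under 0.01 FPKM over the 8 libraries without protein and were tested only because the H929 protein library, which was never left out, is high, so their calls are not support. In all, 148 tested genes reached the mean of 5 FPKM only through a protein library, 5 of the 38 among them (also PLXNA3, STXBP3 and HSD17B7). With wild type alone as the comparison limma called 0 genes, with 691 at an unadjusted p under 0.05.

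**Figure D1:**
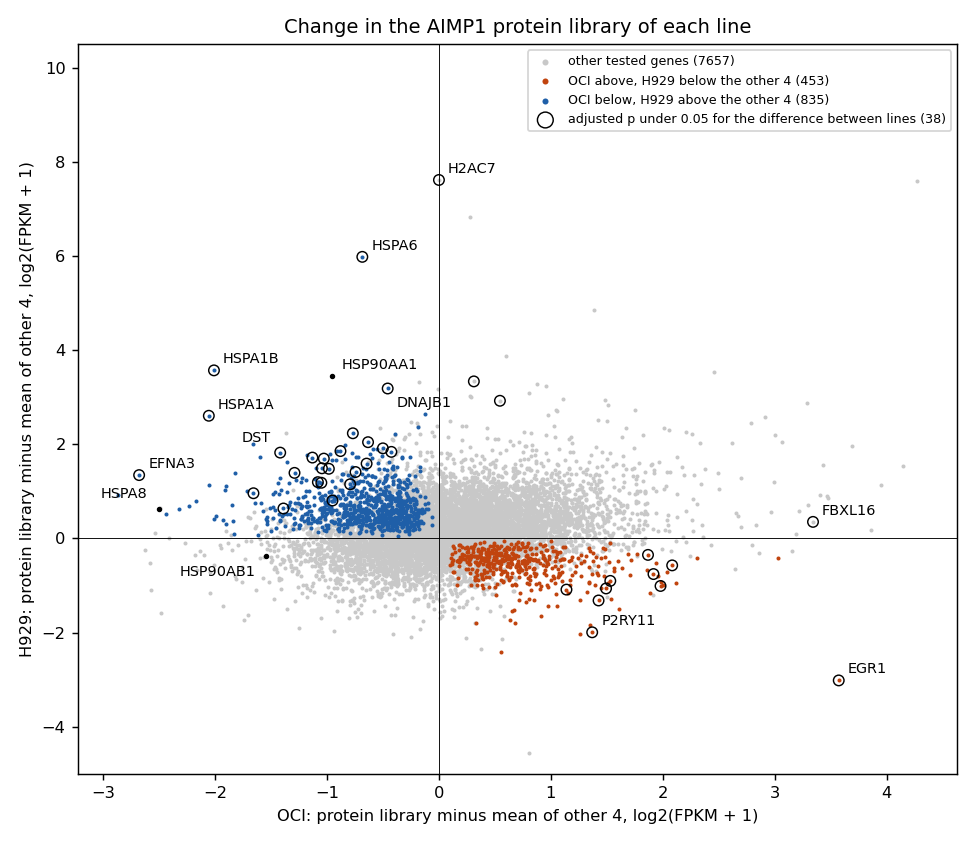
Response of each tested gene in OCI (x axis) and in H929 (y axis), on the log2(FPKM + 1) scale, as the protein library minus the mean of the other 4 libraries of the line; each point is a gene and circles mark the 38 called for the difference. Heat shock genes HSPA6, HSPA1A, HSPA1B and DNAJB1 lie at the upper left and EGR1 at the lower right, with 835 genes in the upper left class and 453 in the lower right one.

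Cytosolic heat shock chaperones had the most negative median difference between lines of the gene lists with at least 5 tested members. Of 26 tested members of a list of HSF1 target chaperones, 22 had a negative response in OCI and 19 a positive one in H929. The OCI protein library was below all 4 others for 15 of them, against 24.5% of all genes tested, and the H929 protein library above all 4 others for 19, against 42.9% of all genes. For 10 members (38.5%, against 9.33% of all genes) both held, and 0 showed the reverse. With median centring 9 members remained in that order. HSPA6 is among the 10, and 2 members of the list were tested only through a protein library, so these counts are a description. The list's median response was -0.75 in OCI and 0.64 in H929, with a median difference of -1.55 against -0.09 over all genes. For the difference limma called 4 of the 26 members, all negative, against 0.302% of all genes called negative. Of these 4, HSPA6 was tested only through its H929 protein value. A library without protein was also low: set against the mean of the 4 OCI libraries without protein, OCI knockdown 2 had a list median of -0.55, against 0.09 to 0.23 in wild type, knockdown 1 and overexpression.

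HSPA6, the strictly stress-induced member of the HSP70 family, stood at 0.271 FPKM in OCI protein, against 0.718, 1.09, 0.770 and 1.75 FPKM in OCI wild type, knockdown 1, knockdown 2 and overexpression. In H929 it stood at 128 FPKM in the protein library, against 0.878, 0.572, 2.10 and 0.887 FPKM in the same order of the other 4. The H929 protein library stood far above the other 4, while all OCI values were too low to read a direction there. The difference between lines was -6.67 ± 0.67 (SE) and the response in H929 was 5.98. Since the H929 protein library alone brought HSPA6 over the mean of 5 FPKM, these values are a description.

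HSPA1B and HSPA1A encode the same inducible HSP70 protein from near-identical neighbouring genes, so the split of reads between them is uncertain. HSPA1B had 6.47 FPKM in OCI protein against 20.6 to 45.9 FPKM in the other OCI libraries, and 313 FPKM in H929 protein against 17.4 to 33.3 FPKM in the other H929 libraries. HSPA1A had 3.13 FPKM in OCI protein against 6.75 to 23.8 FPKM in the other OCI libraries, and 9.24 FPKM in H929 protein against 0.493 to 0.842 FPKM in the other H929 libraries. The sum of the pair was 9.60 FPKM in OCI protein against 27.4 to 69.8 FPKM in the other OCI libraries, and 323 FPKM in H929 protein against 18.1 to 34.1 FPKM in the other H929 libraries, so the sum lay outside both ranges in the same order. The differences between lines were -5.58 ± 0.59 for HSPA1B (limma adjusted p = 0.00274) and -4.66 ± 0.76 for HSPA1A (adjusted p = 0.0335). HSPA1B fell in OCI (-2.01, adjusted p = 0.036) and rose in H929 (3.57, adjusted p = 0.0045).

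DNAJB1, the HSP40 co-chaperone that stimulates HSP70, had 32.6 FPKM in OCI protein against 40.2 to 51.8 FPKM in the other OCI libraries. In H929 it had 336 FPKM in the protein library against 31.6 to 47.5 FPKM in the other 4. The groups did not overlap in either line, and the difference of -3.64 ± 0.39 (limma adjusted p = 0.00274) again came mainly from the rise in H929 (3.18, adjusted p = 4.21e-04). HSP90AA1, the stress-inducible cytosolic HSP90, had 34.1 FPKM in OCI protein against 28.3 to 104 FPKM in the other OCI libraries, and 957 FPKM in H929 protein against 59.3 to 108 FPKM in the other H929 libraries. It rose in H929 (3.45, adjusted p = 0.0292), while OCI protein lay inside the range of the line, with knockdown 2 lower still, and the difference between lines of -4.41 ± 0.82 just missed the threshold (adjusted p = 0.0501).

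The abundant constitutive chaperones HSPA8 and HSP90AB1 lay on different sides of the other 4 in H929 and on the same side in OCI. HSPA8, the constitutive HSP70, had 119 FPKM in OCI protein, against 1010 FPKM in wild type, 1134 and 260 FPKM in knockdown 1 and 2 and 723 FPKM in overexpression. In H929 it had 1622 FPKM in the protein library, against 1477 FPKM in wild type, 748 and 1245 FPKM in knockdown 1 and 2 and 869 FPKM in overexpression. The OCI value was far below the other 4, the H929 value only just above the highest of them, and the difference of -3.14 ± 0.93 did not pass (limma adjusted p = 0.12) unless OCI knockdown 2 was left out (adjusted p = 0.0142). HSP90AB1, the constitutive HSP90, was lower in both protein libraries, with 293 FPKM in OCI against 577 to 1052 FPKM in the other 4, and 752 FPKM in H929 against 807 to 1168 FPKM in the other 4. It fell in OCI (-1.55, adjusted p = 0.0407), its response in H929 was -0.38 (adjusted p = 0.539), and the difference of -1.17 ± 0.48 did not pass (adjusted p = 0.232), so this gene did not change in opposite directions.

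Among the other chaperones, CHORDC1, an HSP90 partner, had 11.2 FPKM in OCI protein, next to OCI knockdown 2, against 20.8 to 27.2 FPKM in the other 3 OCI libraries, and 49.5 FPKM in H929 protein against 15.7 to 24.8 FPKM. CACYBP, which binds calcyclin, fell in OCI (limma adjusted p = 0.0427), with 27.6 FPKM in OCI protein against 50.0 to 108 FPKM, and had 151 FPKM in H929 protein against 107 to 121 FPKM. HSPH1, a nucleotide exchange factor of HSP70, had 3.83 FPKM in OCI protein against 3.78 to 20.5 FPKM and 57.5 FPKM in H929 protein against 9.69 to 13.8 FPKM, so OCI knockdown 2 again lay beside OCI protein. These 3 genes did not pass for the difference (limma adjusted p = 0.0926, 0.0924 and 0.0859 in that order). SERPINH1, a collagen chaperone of the endoplasmic reticulum that HSF1 also drives, rose in H929 (3.23, adjusted p = 0.021), with 133 FPKM in the protein library against 9.80 to 15.2 FPKM in the other 4. Its OCI response was positive too (0.95, adjusted p = 0.251), at 58.7 FPKM in the protein library against 19.6 to 62.3 FPKM in the other 4. HSF1 mRNA was above the other 4 in both lines, with 72.3 FPKM in OCI protein against 34.9 to 41.8 FPKM and 31.0 FPKM in H929 protein against 24.7 to 30.5 FPKM. Without OCI knockdown 2 limma called 12 of the 26 members lower for the difference, and without any other single library 3 to 6, while the median difference ranged from -1.85 to -1.42 over these fits.

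**Figure D2:**
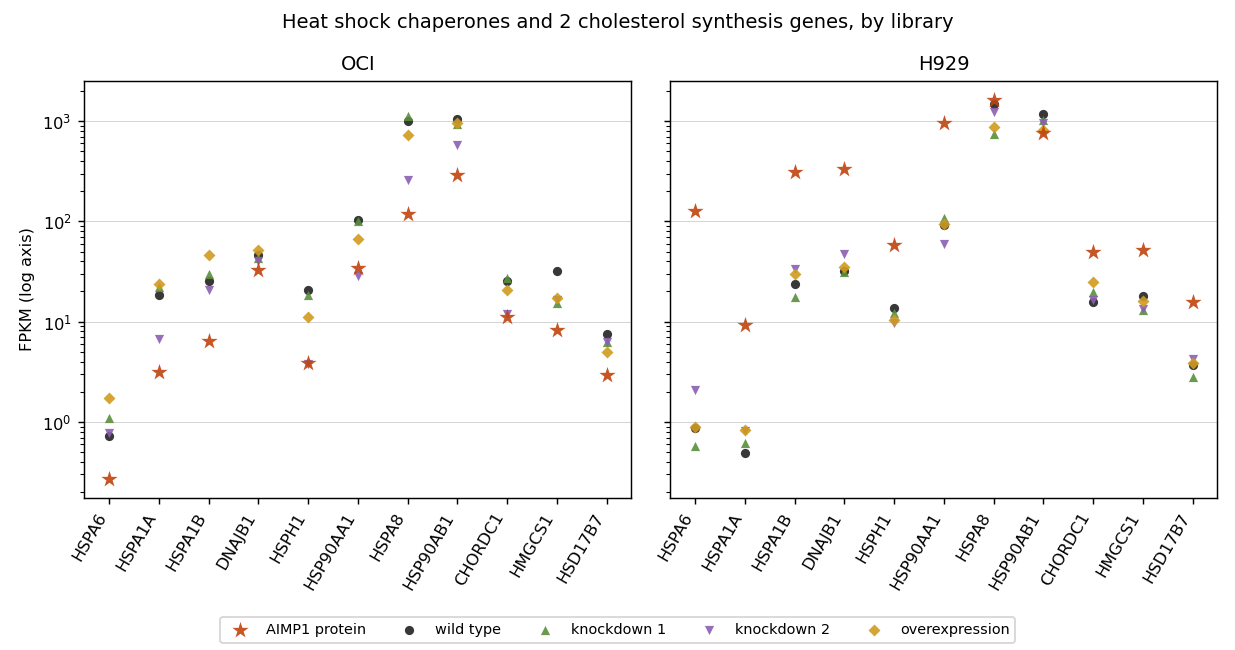
FPKM (log axis) of 9 heat shock chaperones and 2 cholesterol synthesis genes in the 5 libraries of OCI (left) and of H929 (right); a star marks the AIMP1 protein library and other symbols the 4 libraries of the same line. The stars lie at or near the bottom of each column in OCI and at the top in H929, except HSP90AB1, where the star is at the bottom in both (293 and 752 FPKM).

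Promoter sequence is shown for HSPA6, HSPA1B, HSPA1A, HSPA8 and HSP90AB1, because HSF1 binds repeats of the unit GAA in alternating orientation. Each of these had a negative difference between lines. The 250 bases before the start of each gene were taken from RefSeq (build GRCh38.p14) and searched on both strands for paired units, GAANNTTC or TTCNNGAA, which are set in capitals and may overlap. These windows are chr1:161524290-161524539 (+ strand) for HSPA6, chr6:31827488-31827737 (+ strand) for HSPA1B, chr6:31815293-31815542 (+ strand) for HSPA1A, chr11:123062137-123062386 (- strand) for HSPA8 and chr6:44245944-44246193 (+ strand) for HSP90AB1, each written 5′ to 3′ on the strand of its gene.
HSPA6: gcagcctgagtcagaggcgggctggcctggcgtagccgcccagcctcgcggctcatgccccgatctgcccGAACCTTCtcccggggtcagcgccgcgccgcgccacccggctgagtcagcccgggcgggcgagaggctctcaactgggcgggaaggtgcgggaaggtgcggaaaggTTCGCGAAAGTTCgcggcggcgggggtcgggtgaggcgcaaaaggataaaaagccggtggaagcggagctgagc
HSPA1B: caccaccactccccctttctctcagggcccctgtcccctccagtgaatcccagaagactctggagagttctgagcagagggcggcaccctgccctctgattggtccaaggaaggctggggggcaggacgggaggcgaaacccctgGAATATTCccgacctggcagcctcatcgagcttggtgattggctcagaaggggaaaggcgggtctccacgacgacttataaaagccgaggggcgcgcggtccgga
HSPA1A: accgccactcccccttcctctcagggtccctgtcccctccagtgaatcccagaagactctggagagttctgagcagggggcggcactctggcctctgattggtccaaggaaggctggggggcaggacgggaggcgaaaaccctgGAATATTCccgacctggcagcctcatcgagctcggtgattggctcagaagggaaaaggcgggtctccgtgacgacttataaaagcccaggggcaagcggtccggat
HSPA8: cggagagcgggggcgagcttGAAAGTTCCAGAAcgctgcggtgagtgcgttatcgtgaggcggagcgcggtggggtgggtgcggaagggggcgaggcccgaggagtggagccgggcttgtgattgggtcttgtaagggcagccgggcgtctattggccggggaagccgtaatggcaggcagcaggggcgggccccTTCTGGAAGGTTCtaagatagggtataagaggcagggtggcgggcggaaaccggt
HSP90AB1: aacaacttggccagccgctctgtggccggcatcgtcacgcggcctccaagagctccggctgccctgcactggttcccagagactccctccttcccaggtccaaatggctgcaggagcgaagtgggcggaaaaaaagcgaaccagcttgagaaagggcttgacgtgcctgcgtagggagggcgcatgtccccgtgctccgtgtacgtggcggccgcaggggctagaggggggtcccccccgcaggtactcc

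HSPA6 held 3 paired units and HSPA8 held 4, in part overlapping, so that HSPA6 had 1 stretch of 3 units (GAA and TTC in turn, 2 bases apart) and HSPA8 had 2. HSPA1A and HSPA1B each held 1 paired unit, at nearly the same place in nearly the same sequence, and the letters were not found in the windows of HSP90AB1 and DNAJB1. A paired unit stood in the window of 10 of the 24 tested chaperones with a promoter sequence (41.7%), against 8.58% of 7168 tested genes and 11.7% of 27305 promoters of the same length. A stretch of 3 units stood in 5 of the 24 (20.8%), against 0.265% of the tested genes and 0.439% of all promoters. A match describes letters in a window and says nothing of binding in these cells.

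Cholesterol synthesis genes were the next list with medians of opposite sign. Of 22 tested members, 15 had a negative response in OCI and 18 a positive one in H929, with list medians of -0.29 and 0.68 and a median difference of -0.58. On the same scale, set against the mean of the 4 OCI libraries without protein, OCI knockdown 2 had a median of -0.31 and OCI wild type one of 0.48. Without OCI wild type the OCI median was -0.12 and the median difference -0.35. Opposite change outside both ranges held for 6 members (27.3%, against 9.33% of all genes), among them HMGCS1, HSD17B7, FDFT1, MSMO1 and STARD4, and for 0 in the reverse direction. HMGCS1, the synthase that makes HMG-CoA, had 8.29 FPKM in OCI protein, against 31.8, 15.4, 16.6 and 17.1 FPKM in wild type, knockdown 1, knockdown 2 and overexpression. In H929 it had 51.5 FPKM in the protein library against 17.99, 13.1, 13.3 and 16.1 FPKM in the same order. The protein library did not overlap the other 4 in either line, and the difference was -2.85 ± 0.52 (limma adjusted p = 0.0455). HSD17B7, a sterol ketone reductase of the pathway, had 2.91 FPKM in OCI protein against 4.99 to 7.61 FPKM in the other OCI libraries. In H929 protein it had 15.7 FPKM against 2.78 to 4.27 FPKM. The difference was -2.73 ± 0.46 and the response in H929 was 1.85. Its mean without the protein libraries was 4.95 FPKM, just under the limit, so HSD17B7 was tested only through the H929 protein library. Its values, its call and the count of 6 members that holds it are therefore a description.

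FDFT1, the squalene synthase, had 39.2 FPKM in OCI protein against 52.7 to 109 FPKM and 133 FPKM in H929 protein against 43.8 to 65.9 FPKM (limma adjusted p = 0.0859). SREBF2, which encodes SREBP2, lay above the other 4 in both lines, at 116 FPKM in OCI protein against 50.4 to 82.8 FPKM and 50.7 FPKM in H929 protein against 31.8 to 46.1 FPKM. The 2 calls in this list were lost without any 1 of H929 wild type, either H929 knockdown library, OCI knockdown 1 or OCI overexpression, and HMGCS1 also with median centring (limma adjusted p = 0.0503). Of 10 fatty acid synthesis genes, 3 were opposite outside both ranges with OCI lower (ACSS2, ACACA and ELOVL5; 30.0%, against 9.33% of all genes). The list medians were -0.42 in OCI and 0.49 in H929. For the difference limma called 0 of the 10 (adjusted p = 0.176 to 0.206 for these 3), with 4 at an unadjusted p under 0.05, against 18% of all genes.

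The opposite direction, higher in OCI and lower in H929, was led by EGR1, a zinc finger transcription factor of the immediate early response. EGR1 had 178 FPKM in OCI protein, against 16.98, 21.7, 17.6 and 5.77 FPKM in wild type, knockdown 1, knockdown 2 and overexpression. In H929 it had 7.00 FPKM in the protein library against 32.0, 72.8, 198 and 35.4 FPKM in the same order. The protein library was the highest in OCI and the lowest in H929 without overlap, although the other H929 libraries themselves spread widely. The difference was 6.59 ± 1.21 (limma adjusted p = 0.0461), it rose in OCI (3.57, adjusted p = 0.0452), and its response in H929 was -3.02 (adjusted p = 0.111). EGR1 remained called in 9 of 19 alternatives and was lost without any 1 of H929 wild type, either H929 knockdown library, OCI knockdown 1 or OCI overexpression.

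Of the 19 tested AP-1 and immediate early genes, all had a positive response in OCI and 12 in H929, with list medians of 1.37 and 0.42. Opposite change outside both ranges held for 4 (21.1%, against 5.06% of all genes): EGR1, IER2, FOS and MYC. IER2 had 374 FPKM in OCI protein against 72.1 to 106 FPKM and 70.9 FPKM in H929 protein against 78.0 to 224 FPKM. FOS, a subunit of AP-1, had 29.7 FPKM in OCI protein against 4.17 to 17.6 FPKM and 8.14 FPKM in H929 protein against 8.40 to 21.8 FPKM. MYC, the growth-driving transcription factor, had 783 FPKM in OCI protein against 394 to 642 FPKM and 131 FPKM in H929 protein against 195 to 260 FPKM. None of IER2, FOS and MYC passed for the difference (limma adjusted p = 0.0826, 0.246 and 0.143 in that order). JUN, the partner of FOS in AP-1, was high in both protein libraries, at 82.3 FPKM in OCI against 2.65 to 32.0 FPKM and 75.2 FPKM in H929 against 5.98 to 21.8 FPKM. Whether FOS and JUN differed in this was not tested.

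The EGR1 window, chr5:138465229-138465478 (+ strand), is shown because serum response factor drives this gene through CArG boxes, which are set in capitals.
EGR1: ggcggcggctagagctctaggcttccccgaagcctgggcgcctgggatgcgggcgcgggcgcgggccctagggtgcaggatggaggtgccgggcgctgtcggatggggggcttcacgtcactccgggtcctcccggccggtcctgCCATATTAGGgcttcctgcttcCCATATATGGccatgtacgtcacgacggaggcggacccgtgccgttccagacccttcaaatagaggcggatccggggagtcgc
The window held 2 matches to the CArG box, which stood in 1.1% of the windows of tested genes and 1.14% of all promoters.

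The other genes called positive included several regulators. KMT2D, a histone H3 lysine 4 methyltransferase, had 43.9 FPKM in OCI protein, against 23.8, 19.6, 15.8 and 19.0 FPKM in wild type, knockdown 1, knockdown 2 and overexpression. In H929 it had 11.5 FPKM in the protein library against 30.1, 25.5, 26.8 and 20.7 FPKM in the same order, with no overlap in either line (difference 2.23 ± 0.40, limma adjusted p = 0.0455). IRF2BP2, a transcriptional corepressor, had 160 FPKM in OCI protein against 34.8 to 49.1 FPKM and 17.7 FPKM in H929 protein against 27.3 to 36.7 FPKM (difference 2.67 ± 0.37, adjusted p = 0.0247). PLEKHG2, a guanine nucleotide exchange factor, had 54.6 FPKM in OCI protein against 16.3 to 21.9 FPKM and 10.4 FPKM in H929 protein against 19.0 to 27.8 FPKM (2.56 ± 0.38, adjusted p = 0.029). For each of these 3 genes the protein library was the highest of its line in OCI and the lowest in H929. TMEM250 (2.75 ± 0.46) and B9D2, a protein of the ciliary transition zone (2.99 ± 0.54), followed the same order. P2RY11, an ATP receptor, had 30.6 FPKM in OCI protein against 8.96 to 13.99 FPKM and 1.65 FPKM in H929 protein against 5.34 to 13.3 FPKM (3.36 ± 0.58, adjusted p = 0.0378), but it overlaps a readthrough transcript with PPAN, so its reads are uncertain. FBXL16, an F-box protein, rose in OCI (3.34, adjusted p = 0.00288), with 159 FPKM in the protein library against 11.8 to 18.4 FPKM in the other 4. In H929 it lay just above the other 4 as well, at 5.97 FPKM against 3.41 to 5.71 FPKM, so its difference (2.99 ± 0.44) was one of size and not of direction.

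Of 28 ATF4 and CHOP target genes, which respond to amino acid shortage and other stress, 13 were above the other 4 in both lines (against 16.4% of all genes). The list medians were 1.89 in OCI and 0.62 in H929. A library without protein was also high: set against the mean of the 4 OCI libraries without protein, OCI knockdown 2 had a median of 1.09. Wild type, knockdown 1 and overexpression had -0.514 to -0.265. Opposite change outside both ranges with OCI higher held for 2 amino acid transporters (7.14%, near the 5.06% of all genes). One member, ALDH18A1, showed the reverse. SLC7A5, the large neutral amino acid transporter LAT1, had 577 FPKM in OCI protein against 113 to 206 FPKM and 57.6 FPKM in H929 protein against 62.8 to 184 FPKM. SLC7A1, a cationic amino acid transporter, had 129 FPKM in OCI protein against 25.8 to 52.1 FPKM and 20.6 FPKM in H929 protein against 21.7 to 42.9 FPKM. H929 overexpression lay close to H929 protein for both, and the differences did not pass (limma adjusted p = 0.0826 and 0.0787). Of the 11 tested plasma cell genes, 2 were opposite outside both ranges with OCI higher (TNFRSF17 and SLAMF7, 18.2%, against 5.06% of all genes). This share counts SLAMF7, which was tested only through the OCI protein library, so it is a description. With OCI lower there was 1 (MZB1; 9.09%, near the 9.33% of all genes), while CD38 and SDC1 were in neither class. TNFRSF17, which encodes the myeloma antigen BCMA, had 234 FPKM in OCI protein against 54.8 to 107 FPKM and 23.2 FPKM in H929 protein against 29.6 to 61.3 FPKM (adjusted p = 0.0906). GPRC5D, another myeloma surface antigen but not on that list, had 516 FPKM in OCI protein against 98.3 to 392 FPKM and 21.9 FPKM in H929 protein against 36.7 to 78.2 FPKM (adjusted p = 0.124). For both antigens the protein library was the highest in OCI and the lowest in H929. SLAMF7, a myeloma surface antigen too, had 33.99 FPKM in OCI protein against 3.49 to 8.25 FPKM, but at most 0.990 FPKM in any H929 library, too low to read a direction there. It reached the mean of 5 FPKM only through the OCI protein library, so its values are a description. MZB1, a chaperone of antibody assembly, went the other way, at 534 FPKM in OCI protein against 676 to 1066 FPKM and 414 FPKM in H929 protein against 278 to 398 FPKM (adjusted p = 0.311). Over the list the medians were 0.39 in OCI and -0.14 in H929.

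**Figure D3:**
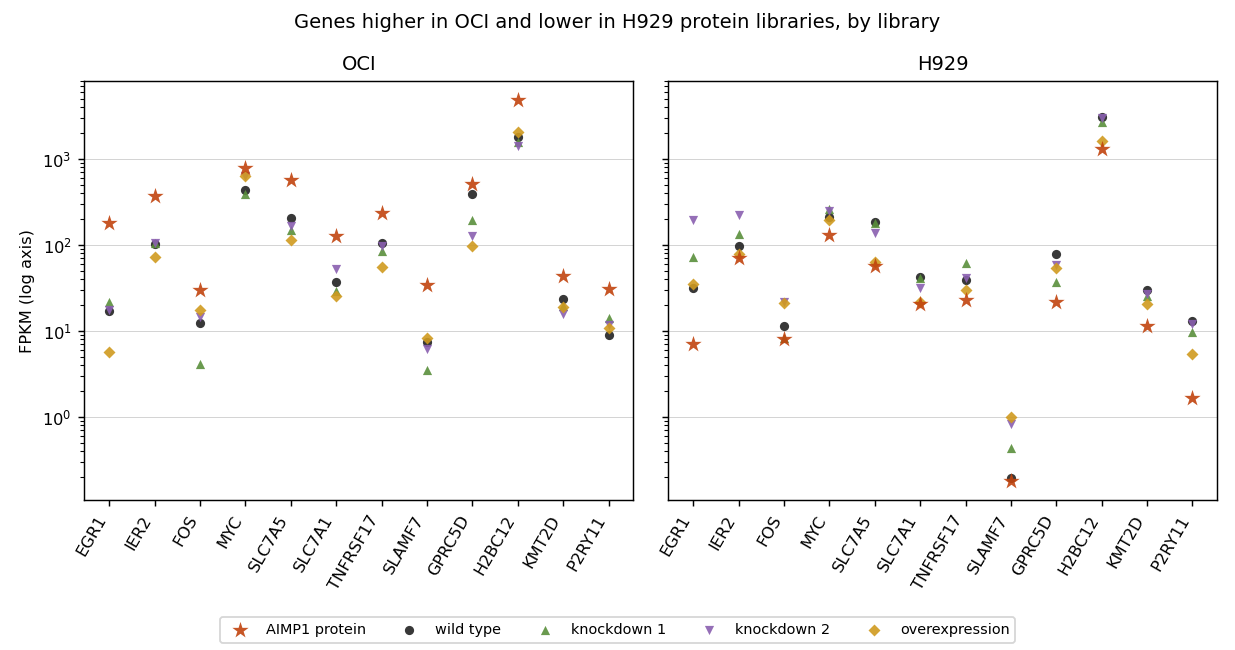
FPKM (log axis) of 12 genes in the 5 libraries of OCI (left) and of H929 (right); a star marks the AIMP1 protein library and other symbols the 4 libraries of the same line. In OCI the stars lie at the top of each column, and in H929 at the bottom, with EGR1 at 178 FPKM in OCI protein and 7.00 FPKM in H929 protein.

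Replication-dependent histone genes, which are expressed in S phase, had the most positive median difference of the lists, at 1.31. Of 38 tested members, 33 had a positive response in OCI and 28 a negative one in H929 (medians 0.98 and -0.58), and 8 were opposite outside both ranges with OCI higher (21.1%, against 5.06% of all genes), with 0 the other way. Set against the mean of the 4 libraries of the line without protein, H929 overexpression had a histone median of -0.50, close to that of H929 protein, and OCI knockdown 2 one of -0.55. limma called 0 of them for the difference, 16 of 38 having an unadjusted p under 0.05 against 18% of all genes. Without H929 overexpression 6 were called positive, among 58 of all 8945 genes. Without OCI knockdown 2 there were 4, among 92 of all genes. H2BC12 had 4841 FPKM in OCI protein against 1403 to 2059 FPKM and 1315 FPKM in H929 protein against 1606 to 3108 FPKM (difference 2.46 ± 0.53, limma adjusted p = 0.0635). Their mRNAs mostly lack poly(A) tails, their sequences are near-identical, and poly(A) RNA was sequenced, so these levels are uncertain. S phase and DNA replication genes did not share the pattern, with medians of -0.23 in OCI and -0.01 in H929 and 0 of 42 members opposite with OCI higher. H2AC7, a histone H2A gene that the list does not hold, was the called gene with the greatest size of difference (-7.61 ± 0.65), given as a description for the reason stated above. It had 195 FPKM in H929 protein and less than 0.01 FPKM in the other 9 libraries, values that may be failed estimates for a gene with near-identical copies.

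Among mitosis genes, 8 of 37 were opposite outside both ranges with OCI lower (21.6%, against 9.33% of all genes) and 2 with OCI higher, counts that became 6 and 5 with median centring. BUB1B, a spindle checkpoint kinase, had 13.5 FPKM in OCI protein against 13.7 to 28.9 FPKM and 47.6 FPKM in H929 protein against 21.3 to 30.1 FPKM. CENPE, a kinetochore motor, had 2.69 FPKM in OCI protein against 3.02 to 4.64 FPKM and 14.3 FPKM in H929 protein against 3.94 to 8.59 FPKM. limma called 0 of the 37 for the difference (11 of 37 at an unadjusted p under 0.05, against 18% of all genes), and the list medians were 0.03 in OCI and 0.39 in H929.

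Further genes called negative were not members of the lists described above. SRSF5 was the 1 called member of a list of 32 tested SR and hnRNP splicing factors. DST, which encodes the cytoskeletal linker dystonin, had 11.7 FPKM in OCI protein, against 31.1, 25.9, 40.2 and 37.1 FPKM in wild type, knockdown 1, knockdown 2 and overexpression. In H929 it had 157 FPKM in the protein library against 36.9, 49.9, 33.3 and 59.4 FPKM in the same order. It fell in OCI (-1.42, limma adjusted p = 0.0459) and rose in H929 (1.82, adjusted p = 0.0431), with a difference of -3.24 ± 0.48 (adjusted p = 0.029). The protein library was thus the lowest of its line in OCI and the highest in H929, as it was for the next 3 genes. MRE11, a nuclease of DNA double-strand break repair, had 3.10 FPKM in OCI protein against 6.72 to 10.2 FPKM and 35.8 FPKM in H929 protein against 9.13 to 16.1 FPKM (-2.68 ± 0.47, adjusted p = 0.0443). SRSF5, a splicing factor, had 45.5 FPKM in OCI protein against 84.3 to 94.3 FPKM and 150 FPKM in H929 protein against 76.9 to 95.7 FPKM (-1.76 ± 0.32, adjusted p = 0.0455). EFNA3, an ephrin ligand that the annotation overlaps with another transcript on its strand, had 1.42 FPKM in OCI protein against 8.60 to 24.3 FPKM and 21.3 FPKM in H929 protein against 6.27 to 11.6 FPKM (-4.03 ± 0.68, adjusted p = 0.0335).

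Genes of membrane traffic and metabolism were among the rest of the negative calls; the 4 given here were chosen after their values were seen. SEC23A, a subunit of the COPII coat, had 8.07 FPKM in OCI protein against 12.1 to 14.7 FPKM and 42.8 FPKM in H929 protein against 12.1 to 14.4 FPKM (-2.24 ± 0.34, limma adjusted p = 0.029). COPB2, a subunit of the COPI coat, had 28.1 FPKM in OCI protein against 54.9 to 65.9 FPKM and 107 FPKM in H929 protein against 38.8 to 55.0 FPKM (-2.23 ± 0.37, adjusted p = 0.0335). OGT, the enzyme that adds O-GlcNAc to proteins, had 35.7 FPKM in OCI protein against 38.1 to 63.3 FPKM and 222 FPKM in H929 protein against 56.4 to 68.2 FPKM (-2.26 ± 0.40, adjusted p = 0.0418). For these 3 genes the protein library was again the lowest in OCI and the highest in H929. PC, the mitochondrial pyruvate carboxylase, rose in H929 (3.33, adjusted p = 6.60e-04) without an opposite change, at 24.2 FPKM in OCI protein against 17.6 to 21.3 FPKM and 144 FPKM in H929 protein against 9.25 to 17.6 FPKM (-3.02 ± 0.44, adjusted p = 0.029).

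Medians of 5 further lists had the same sign in both lines. The 17 NF-kB pathway and target genes had medians of 1.56 in OCI and 1.26 in H929, with 14 above the other 4 in both lines (against 16.4% of all genes). Cytosolic ribosomal protein genes had medians of 0.31 in OCI and 0.74 in H929, ribosome biogenesis genes -0.45 and -0.85, and proteasome subunits -0.43 and -0.24. Set against the mean of the 4 OCI libraries without protein, OCI knockdown 2 went further on these lists than OCI protein. Its medians were 0.37, -0.69 and -0.57 in that order. It went less far on the NF-kB list (0.23) and on the endoplasmic reticulum chaperone list (-0.15). Endoplasmic reticulum chaperones had medians of -0.30 in OCI and -0.32 in H929. Opposite change outside both ranges held for 2 members with OCI higher (SEC61A1 and HYOU1, 9.09%, against 5.06% of all genes). With OCI lower there was 1 (HSP90B1, 4.55%, against 9.33% of all genes). With quantile normalization these counts were 0 and 0, and with the GC correction 0 and 1. HSP90B1 had 56.1 FPKM in OCI protein against 110 to 128 FPKM and 227 FPKM in H929 protein against 86.2 to 205 FPKM. limma called 0 members of these 5 lists for the difference, with 2, 3, 3, 2 and 1 members at an unadjusted p under 0.05 in that order, each a smaller share than the 18% of all genes.

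**Figure D4:**
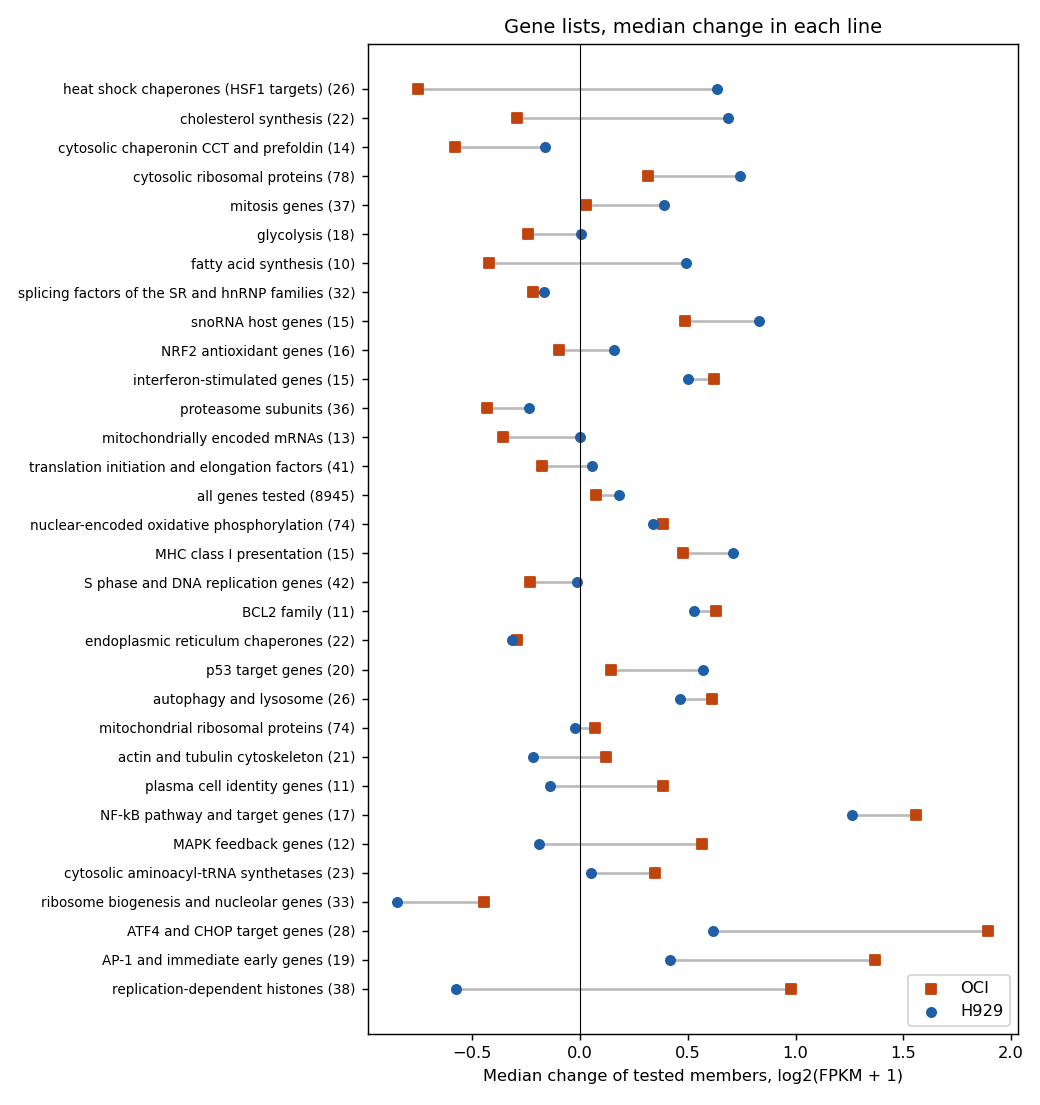
Median response of each gene list with at least 5 tested genes in OCI (squares) and H929 (circles), on the log2(FPKM + 1) scale, with the number tested in brackets and lists ordered by the median difference. Heat shock chaperones (-0.75 and 0.64) and replication-dependent histones (0.98 and -0.58) lie at the ends, with the 2 symbols on opposite sides of 0.

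The 2 classes of opposite change also differed in base composition. The median GC content of the longest transcript was 43.3% for the 835 genes lower in OCI and higher in H929, and 52.2% for the 453 genes with the reverse, against 49.7% over the tested genes. The gene span had medians of 50.8 and 26.2 kb in that order, against 28.6 kb. In the fifth of genes with the lowest GC content, 17.9% were lower in OCI and higher in H929, against 5.04% in the fifth with the highest. Across 8939 genes the OCI response followed GC content with a Spearman correlation of 0.378 and the H929 response with 0.056, and other libraries set against the rest of their line gave -0.469 to 0.512. With a GC correction in each library, chosen after the data were seen, limma called 29 genes, 26 of the 38 among them, and the classes held 658 and 726 genes. EGR1, KMT2D, B9D2 and HMGCS1 were among the 12 no longer called, with differences of 6.47, 2.11, 2.88 and -2.42 in that order, against 6.59, 2.23, 2.99 and -2.85 without the correction. The heat shock list kept 4 called members and a median difference of -1.45. Gene span was not corrected for, and its part in the result was not tested.

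**Figure D5:**
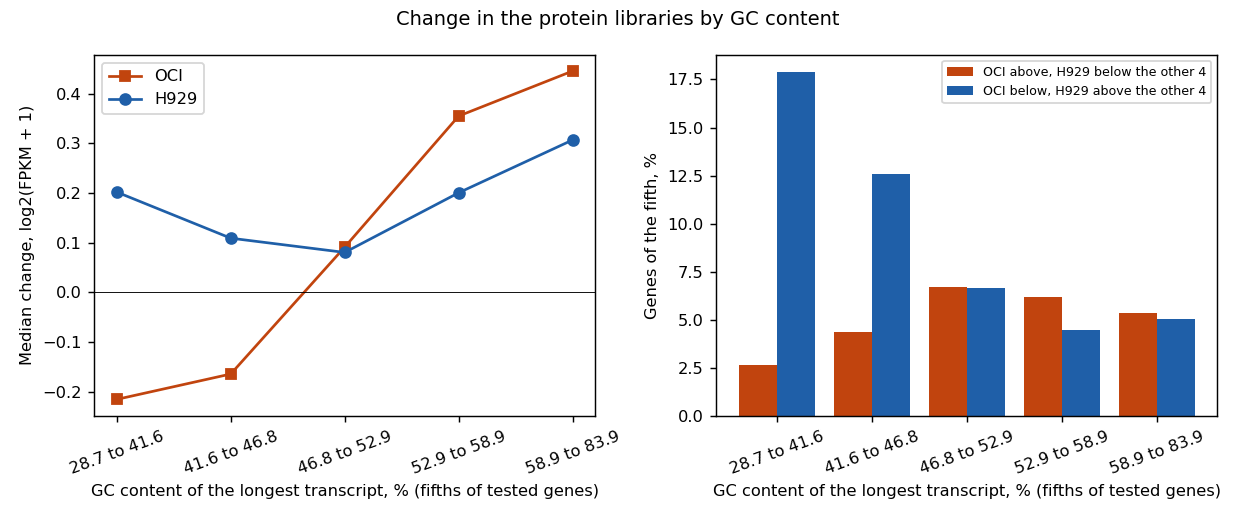
Left, median response in OCI (squares) and H929 (circles) in 5 groups of equal size by GC content of the longest transcript, low to high, on the log2(FPKM + 1) scale; right, percentage of each group with opposite change outside both ranges. The share with OCI below and H929 above the other 4 is 17.9% in the group of lowest GC content and 5.04% in that of highest.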

How the data were processed

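Per the labels' protocols, libraries of poly(A) RNA were read as paired ends (Illumina NovaSeq). The authors deposited 1 table of FPKM values for 58229 human Ensembl gene identifiers in the 10 libraries. The submitters' processing notes name HISAT2 2.0, StringTie 1.3.0 and Bowtie 0.12.2, and list mm8, a mouse build, as the genome, although the identifiers are human. Whether strand was used in counting, and how reads shared by near-identical genes were assigned, is not stated by any source used here. The meaning of the suffix ZY on the wild-type columns is also not given. No counts were used, so no counting interval or lowest detectable level is given, and FPKM values at or near 0 may be failed estimates.

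Identifiers were matched to a gene name table (57518 of 58229 matched, 41822 with a symbol). The test covered genes above 0 FPKM in all 10 libraries whose mean reached 5 FPKM, on log2(FPKM + 1), a scale that understates the change of low genes. Of these 8945 genes 8792 had a symbol and 8418 were protein-coding in GENCODE 29, and 98 more genes passed the mean but were at 0 in some library. limma 3.58.1 in R 4.3.3 was fitted to 4 group means (protein and other libraries in each line) with a variance trend, 6 residual and 5.17 prior degrees of freedom. All p-values are two-sided and were adjusted by Benjamini-Hochberg over all 8945 genes, with a threshold of 0.05. An exact permutation test of 1 library against 4 cannot go below a p of 0.2 and was not used. The script was tested on simulated data. Tables and figures were made with Python 3.11.15, pandas 2.3.3 and matplotlib 3.10.9.

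The members and 39 gene lists (1035 of 1072 entries found) were chosen with earlier results of these data known. No set test was run, and lists are described by counts and medians beside those of all genes tested. Genes named were AIMP1, HSPA8 and HSP90AB1, the 12 genes in each direction that lay outside both ranges (ranked by the smaller of the absolute responses in the lines), the 6 called genes in each direction with the largest difference, and up to 4 members of lists with opposite medians or at least 2 opposite members. Other genes were named after their values were seen. GC content and length are those of the longest basic transcript in GENCODE 29. The alternatives changed the pseudocount or the filter, centred libraries on their median, made them equal by quantile normalization, or used wild type alone as the comparison, other variance models, a replicate block or a GC correction. Each of the 8 libraries without protein was also left out in turn.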

Additional observations from a re-analysis of the deposited data

Results flagged for a closer look

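The responses of the lines differed past the limma threshold (adjusted p under 0.05) for 38 genes, of which the rule for named genes selects 19. Each rests on 1 protein library per line. Higher in OCI than in H929 were EGR1 (a difference of 6.59 on the log2 scale), P2RY11 (3.36), FBXL16 (2.99), B9D2 (2.99), TMEM250 (2.75), IRF2BP2 (2.67), PLEKHG2 (2.56) and KMT2D (2.23). Lower in OCI than in H929 were SRSF5 (-1.76), MRE11 (-2.68), HSD17B7 (-2.73), HMGCS1 (-2.85), DST (-3.24), DNAJB1 (-3.64), EFNA3 (-4.03), HSPA1A (-4.66), HSPA1B (-5.58), HSPA6 (-6.67) and H2AC7 (-7.61). HSPA1B and DNAJB1 were called in 18 of 19 alternatives and EGR1 in 9 of 19. HSPA6, H2AC7 and HSD17B7 reached the mean of 5 FPKM only through the H929 protein library, so their calls are a description. Groups of 5 libraries held 4 conditions, so no library was tested for standing apart from replicates of its group.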

How the results depend on the processing

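The counts of calls depended on the processing, and the cause was not tested. A pseudocount of 5 gave 29 genes called positive and 70 negative for the difference between lines, and 156 called in H929. A mean of at least 1 FPKM with zeros allowed gave 17 and 44 for the difference, 133 in OCI and 0 opposite calls, where 12872 genes were tested. A mean of at least 20 FPKM gave 2 and 8 for the difference and 226 and 312 genes outside both ranges with OCI higher and with OCI lower, where 4352 were tested. Median centring gave 14 calls in H929 and 1 opposite call, and a fit without variance trend 1 opposite call. Quantile normalization gave 3 and 7 for the difference, 1 in OCI, 20 in H929 and 0 opposite calls. Wild type alone as the comparison gave 0 and 0 for the difference, 0 in OCI, 0 in H929 and 0 opposite calls, with 691 genes at an unadjusted limma p under 0.05 for the difference. The GC correction, chosen after the data were seen, gave 1 opposite call and 726 genes outside both ranges with OCI higher.

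With a replicate block on the knockdown numbers, limma called 27 and 62 genes for the difference, 967 in OCI, 192 in H929 and 9 opposite. The numbers were not taken as pairs, since there are only 2 of them and the deviations of same-numbered libraries correlated at 0.138.

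Leaving out 1 library at a time gave 0 to 92 genes called positive and 4 to 162 negative for the difference, 1 to 1395 calls in OCI, 8 to 399 in H929 and 0 to 20 opposite calls. Genes outside both ranges numbered 474 to 759 with OCI higher and 888 to 970 with OCI lower. The highest counts of calls came without OCI knockdown 2, and the lowest for the difference (0 positive and 4 negative) without H929 knockdown 1, without H929 knockdown 2 and without OCI overexpression. A protein library could not be left out. No count outside the ranges could be had for wild type alone, the other variance models or the block.

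The difference for AIMP1 reversed to 0.043 with a pseudocount of 0.1, 0.088 with median centring, 0.24 with quantile normalization and 0.51 with the GC correction, and ran from -0.66 to 0.79 when 1 library was left out. For 113 genes under 19 alternatives, 1930 of 2116 values kept direction and side of the threshold, 119 lost the call, 58 gained one and 9 reversed. Of 399 list medians under the alternatives, 6 moved beyond the spread between libraries, among them cholesterol synthesis (-1.22) and fatty acid synthesis (-1.11) with wild type alone and mitosis genes (0.03) with the filter at 20 FPKM.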
